A study of Homo sapiens with 6 samples.

Results

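The microexons described here are the cassette exons of 3 to 27 nt in the table of skipped-exon (SE) events, kept where an event had a mean of at least 10 junction reads over the 6 libraries. The rule gave 410 events, which are 363 distinct exons in 349 genes, out of 47450 SE events (38685 exons) of any length with that depth. Another 140 events of 3 to 27 nt had fewer reads and were left out, and 37 of the 363 exons (10.2%) stood in more than 1 event because their flanking exons differed. The cells were NCI-H1975, an established human lung adenocarcinoma line with mutant EGFR, spelled NCl-H1975 in the labels. They were transfected with 2 µg per well of the PCDNA3.1-SAM68 plasmid or of the PCDNA3.1 plasmid alone (control) with lipofectamine 2000 and kept for 48 h, with 3 libraries of total RNA per group. SAM68 was thus raised above the level that the line makes itself, from a plasmid, in 1 line and at 1 time. The comparison asks which exons are spliced differently when SAM68 is raised.

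An event is described by its percent spliced in (PSI), the share of transcripts that hold the exon, computed from reads over the junctions into the exon (inclusion form) and reads over the junction that leaves it out (skipping form), each divided by the length in which such reads can fall. Each library held between 16951876 and 19737729 SE junction reads, of which 99183 to 116845 belonged to the microexons. In the control libraries the most deeply read event of KHDRBS1, the gene of SAM68, had 1805 to 2064 reads, and in the SAM68 libraries 6865 to 7798, a ratio of 3.95 between the group means once each library was scaled to its SE junction reads. The 2 groups did not overlap, and the two-sided exact permutation test gave p = 0.1, the smallest p that 3 libraries against 3 can give.

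Microexons are the shortest exons of human genes, and many are too short to hold the sequences that normally help the spliceosome to recognise an exon, so their inclusion leans on the introns beside them. They are best known from neurons, where SRRM4 (nSR100) promotes inclusion through UGC motifs just upstream, PTBP1 represses exons with CU-rich sequence before them, and RBFOX proteins act through UGCAUG or GCAUG downstream. Many keep the reading frame and add a few residues at the surface of a protein, often in proteins of vesicle traffic, the cytoskeleton and cell contacts. SAM68 is an RNA-binding protein of the STAR family that binds U- and A-rich motifs such as UAAA and UUUA and regulates alternative exons.

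Apart from the TRAPPC9 exon described below, whose sequence is not shown, the following microexons are among those on which the results turn. Each is shown 5′ to 3′ on the transcribed strand of GRCh38, with 40 nt of upstream intron and 20 nt of downstream intron in lower case and the exon in capitals. The first set holds the 6-nt exon that differed between the groups together with the AFDN exon, which had the largest difference among well-read exons whose groups were apart while all libraries were used, and the KIF21A exon, which was almost absent in control.
AP2M1 (6 nt): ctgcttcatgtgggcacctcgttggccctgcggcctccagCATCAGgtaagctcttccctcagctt
AFDN (21 nt): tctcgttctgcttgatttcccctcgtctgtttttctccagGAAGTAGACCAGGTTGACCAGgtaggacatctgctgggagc
KIF21A (21 nt): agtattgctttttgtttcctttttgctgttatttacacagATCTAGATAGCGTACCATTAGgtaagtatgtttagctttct

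The AP2M1 exon lay at chr3:184180645-184180650 (+ strand), the AFDN exon at chr6:167913403-167913423 (+) and the KIF21A exon at chr12:39330242-39330262 (−). All 3 were coding exons of the canonical transcript, exon 5 of AP2M1, exon 16 of AFDN and exon 24 of KIF21A, and each had a length that is a multiple of 3.

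The second set holds the alternative exons that the cells included in part of their transcripts, and shows how different the exons of this length are in sequence.
AXL (27 nt): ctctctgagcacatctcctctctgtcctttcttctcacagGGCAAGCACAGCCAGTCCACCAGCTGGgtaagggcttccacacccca
FLNA (24 nt): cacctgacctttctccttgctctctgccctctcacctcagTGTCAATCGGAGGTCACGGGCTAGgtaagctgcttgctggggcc
ANXA6 (18 nt): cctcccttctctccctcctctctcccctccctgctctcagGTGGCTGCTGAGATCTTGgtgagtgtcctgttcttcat
MACF1 (18 nt): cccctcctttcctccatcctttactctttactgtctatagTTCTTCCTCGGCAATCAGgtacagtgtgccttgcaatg
SPTAN1 (18 nt): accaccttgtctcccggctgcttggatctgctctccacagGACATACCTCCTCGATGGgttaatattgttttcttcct
PICALM (24 nt): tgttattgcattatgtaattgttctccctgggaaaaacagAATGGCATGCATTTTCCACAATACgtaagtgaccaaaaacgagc
CLASP1 (24 nt): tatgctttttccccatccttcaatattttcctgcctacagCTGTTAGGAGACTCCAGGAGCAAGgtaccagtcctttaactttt

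The third set holds 4 of the shortest exons, and one exon, in JPT1, whose inclusion reads came and went between libraries of the same group.
RTRAF (3 nt): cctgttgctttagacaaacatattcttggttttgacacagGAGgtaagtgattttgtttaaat
DCTN2 (6 nt): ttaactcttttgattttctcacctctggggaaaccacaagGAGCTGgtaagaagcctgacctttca
NSFL1C (6 nt): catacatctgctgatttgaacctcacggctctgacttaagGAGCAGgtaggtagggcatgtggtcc
PHB2 (6 nt): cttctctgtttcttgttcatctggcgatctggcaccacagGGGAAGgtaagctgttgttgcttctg
JPT1 (19 nt): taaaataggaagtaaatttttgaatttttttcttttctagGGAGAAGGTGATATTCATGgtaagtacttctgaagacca

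The exons were spread unevenly over the lengths. Their median length was 23 nt, 213 of the 363 exons (58.7%) had 22 to 27 nt, 98 had 16 to 21 nt, 36 had 10 to 15 nt and only 16 had 3 to 9 nt. The most frequent lengths were 27 nt with 67 exons, 24 nt with 62 and 21 nt with 31, so the counts peaked at multiples of 3. Inclusion was less uniform than for cassette exons at large. Of the 363 exons, 126 (34.7%) had a mean PSI of at most 10%, 99 (27.3%) lay over 10% and under 90%, and 138 (38.0%) reached at least 90%, whereas the shares over all tested SE exons were 15.5%, 13.5% and 71.0%. Rarely included exons were the majority at 10 to 15 nt, 21 of 36 (58.3%), and made up 8 of 16 (50%) at 3 to 9 nt, 35 of 98 (35.7%) at 16 to 21 nt and 62 of 213 (29.1%) at 22 to 27 nt.

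**Figure D1:**
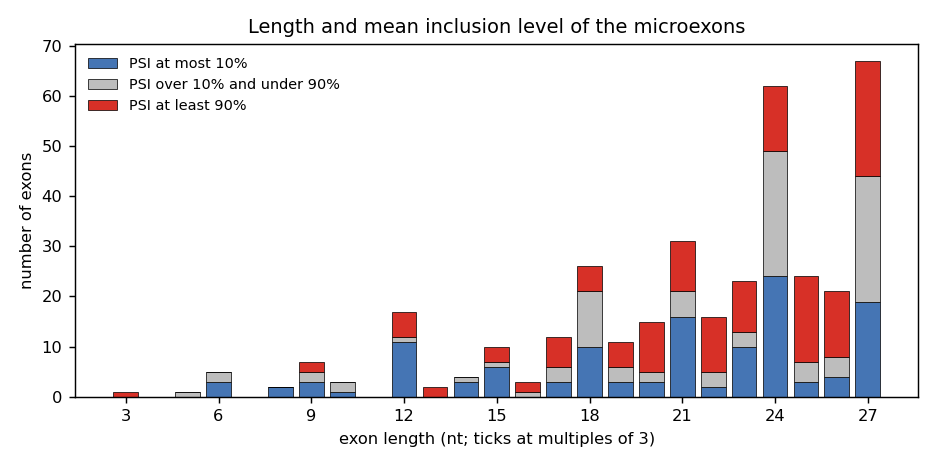
Number of microexons (y axis) at each length in nt (x axis), divided by mean PSI over the 6 libraries into at most 10% (blue), over 10% and under 90% (grey) and at least 90% (red). The counts peak at 21, 24 and 27 nt, and the bars of 12 nt hold mostly blue.

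A length that is a multiple of 3 keeps the reading frame whether the exon is used or not. It was found in 226 of 363 microexons (62.3%), against 40.5% of all tested SE exons. The share was 73.0% among exons with PSI of at most 10%, 72.7% in the middle class and 44.9% at PSI of at least 90%, where in all tested SE exons the same classes had 38.6%, 45.5% and 40%. By the GENCODE 44 annotation, 300 of the 363 exons (82.6%) were coding, 13 were partly coding, 19 lay in a 5' UTR, 4 in a 3' UTR and 26 in noncoding transcripts, and 1, in HINT1, was not annotated as an exon of its own. Among the coding exons, 76 of 89 with PSI of at most 10% (85.4%) and 67 of 85 in the middle class (78.8%) were multiples of 3, compared with 59 of 126 at PSI of at least 90% (46.8%). The canonical transcript held 210 of the 363 exons (57.9%), from 29.4% of the rarely included to 78.3% of the nearly always included ones. For 177 exons (48.8%), a longer annotated exon shared one of their ends, so that junction reads at that end can also come from the longer exon. The introns beside the microexons had medians of 1423 nt upstream and 1407 nt downstream, against 2247 and 2046 nt for the longer tested exons.

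The introns before microexons were rich in pyrimidines. The median share of C and T in the 50 nt upstream was 66% for the microexons and 60% for the 38322 longer tested exons. The letters TGC, contained in the SRRM4 motif, stood within 30 nt upstream of 153 of 363 microexons (42.1%) and of 39.0% of the longer exons. By class, TGC was found beside 68 of 126 rarely included microexons (54.0%), 38.4% of the middle class and 34.1% of those with PSI of at least 90%, while longer exons with PSI of at most 10% had it in 34.3%. CTCTCT, a PTBP1 motif, occurred within 100 nt upstream of 53 microexons (14.6%) and of 8.05% of the longer exons, with 22 of 99 (22.2%) in the middle class and 12 of 138 (8.7%) in the highest. GCATG, the RBFOX core, lay within 150 nt downstream of 71 microexons (19.6%) and 13.2% of the longer exons. The SAM68 letters TAAA and TTTA, searched in 150 nt on either side, were found beside 69.4% and 79.1% of the microexons and 70.0% and 76.6% of the longer exons. At PSI of at most 10% the shares were 68.3% and 77.0% of the microexons and 74.6% and 85.8% of the longer exons. All searches were on the transcribed strand only, TAAA and TTTA can share letters, and a match of letters is not a binding site. All 363 microexons had AG before them and GT or GC after them.

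**Figure D2:**
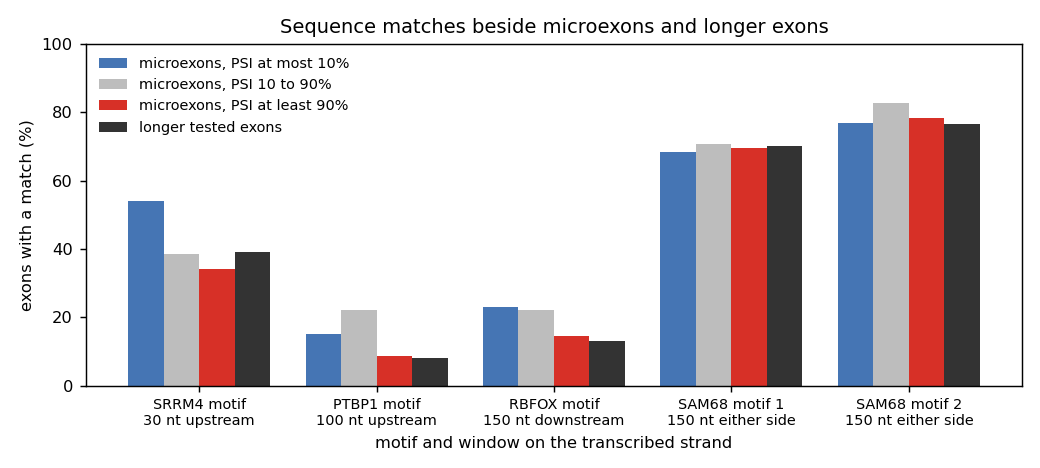
Share of exons in percent (y axis, from 0) with a match to 5 short motifs in fixed windows beside the exon (x axis), for microexons by PSI class and for the 38322 longer tested exons. The SRRM4 motif reaches 54.0% beside rarely included microexons and the PTBP1 motif 22.2% in the middle class, while the bars of the SAM68 motifs (1 is TAAA, 2 is TTTA) differ little.

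The 5 most deeply read microexons at PSI of at least 90% were in RPL41 (23 nt, a ribosomal protein), NAP1L1 (20 nt, a histone chaperone), ATP5MPL (24 nt, a small protein of the mitochondrial ATP synthase), SNRPG (23 nt, a core protein of the spliceosomal snRNPs) and GPX4 (25 nt, the peroxidase that removes lipid peroxides). RPL41 had 12875 to 15306 reads per library and a PSI between 98.99% and 99.55%. SNRPG was the least complete of these 5, at 92.6% ± 0.297 in control and 93.5% ± 0.0322 in SAM68 libraries (SD, n = 3). The 5 deepest at PSI of at most 10% were in LGALS1 (17 nt, galectin-1), HINT1 (26 nt, a nucleotide hydrolase), DCTN2 (6 nt, a dynactin subunit), SFT2D1 (23 nt) and PDLIM7 (17 nt, a PDZ and LIM domain protein). In LGALS1 the exon took 7 to 19 inclusion reads beside 9681 to 12571 skipping reads per library, a PSI between 0.0496% and 0.16%. None of these 10 passed the test of the group difference described below, with adjusted p from 0.356 (PDLIM7) to 0.71 (RPL41).

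The middle class holds the microexons that these cells used as alternative exons, and the deepest of them varied between libraries with an SD of 0.575 to 5.25 points within a group. These 10 were taken by read depth after their values were seen. AXL, a receptor tyrosine kinase, included its 27-nt exon 10 at chr19:41239694-41239720 in 42.1%, 37.6% and 38.9% of control transcripts and in 41.1%, 37.7% and 41.2% of SAM68 transcripts. The groups overlapped, and the difference of 0.478 points had an adjusted p of 0.796. FLNA, the actin crosslinker filamin A, included its 24-nt exon 30 at chrX:154357251-154357274 in 67.8%, 67.4% and 69.2% in control and 66.4%, 67.4% and 64.1% in SAM68 libraries. The highest SAM68 library lay just under the lowest control library, a difference of -2.20 points with adjusted p = 0.565. UQCRH, the hinge subunit of respiratory complex III, had a 27-nt exon at chr1:46309101-46309127 with a PSI of 86.5%, 88.4% and 86.8% in control and 85.7%, 84.3% and 83.9% in SAM68 libraries. Its groups did not overlap, and the difference of -2.57 points had an adjusted p of 0.291.

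ANXA6 (annexin A6, a calcium-dependent membrane-binding protein) kept its 18-nt exon 21 at 77.7% ± 4.18 in control and 81.2% ± 4.92 in SAM68 libraries. The 26-nt exon in the 5' UTR of HNRNPC, an RNA-binding hnRNP, had 70.5% ± 1.81 and 69.4% ± 2.04. The noncoding snoRNA host GAS5 had 88.2% ± 0.795 and 88.4% ± 0.986 at a 23-nt exon (all SD, n = 3). The remaining 4 of the 10, in RPS24, MTCH2, PLSCR1 and GTF3C5, differed by 0.257 to 2.55 points with adjusted p of at least 0.565, and their groups overlapped.

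Over all microexons, SAM68 and control libraries had nearly the same inclusion. The median difference (SAM68 minus control) was -0.0176 points over the 410 events, with quartiles of -1.79 and 1.61, and 0.0365 points over all tested SE events, with quartiles of -1.03 and 1.15. The test was a quasi-binomial fit to the inclusion and skipping reads, with the spread between libraries moderated by limma over all 47450 SE events, and events were called at a Benjamini-Hochberg adjusted p under 0.05 with a difference of at least 10 points. The call was made for 1 of the 410 microexon events (0.244%), in TRAPPC9 and lower in SAM68, against 0.0126% of all tested SE events (6 events), or 0.00632% counting only lower ones. With no limit on the difference, 2 microexon events had an adjusted p under 0.05, against 0.019% of all events, and the second was in AP2M1. An unadjusted p under 0.05 was reached by 46 events (11.2%), 25 lower and 21 higher, where the whole table had 8.56%. The 2 groups did not overlap in 29 events (7.07%), 14 lower and 15 higher, against 5.1% of all events. Among the 163 events read at least 100 times on average, 19 (11.7%) had groups apart, against 5.44% of all events of that depth. Fully separate groups without ties have p = 0.1 in the two-sided exact permutation test, so a share of 0.1 would arise by chance. Libraries tied at 100% count as overlapping. A PSI of at least 90% was reached by 39.8% of microexon events and 72.0% of all tested SE events. The shares were not compared within PSI classes, so they do not show a stronger response of microexons. A difference of at least 10 points was seen in 42 events (10.2%, against 6.51%), 22 lower and 20 higher, but 35 of the 42 had a mean under 50 reads, and only 2 of the 163 deep events, in AFDN and JPT1, were among them.

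**Figure D3:**
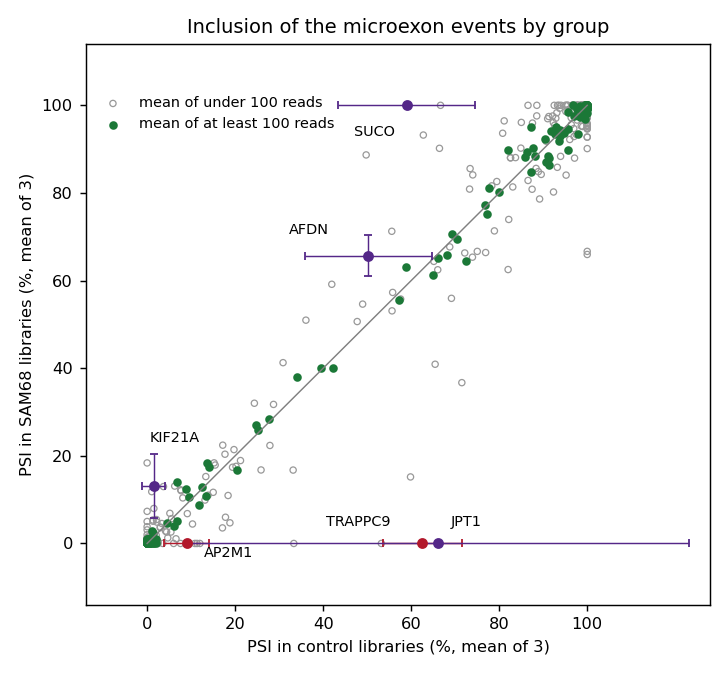
Mean PSI of each of the 410 microexon events in 3 control libraries (x axis, %) and 3 SAM68 libraries (y axis, %), with deep events filled and the line of equal values. Named exons carry SD bars (n = 3), those with adjusted p under 0.05 in red, and the well-read events lie close to the line apart from AFDN and JPT1, whose SD bar runs past 100%.

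TRAPPC9 encodes a subunit of the TRAPP complex, which tethers vesicles on their way through the Golgi. Its 27-nt coding exon 5 at chr8:140426615-140426641 (− strand) was spliced in at a PSI of 72.7%, 59.3% and 55.6% in control, and at 0% in all 3 SAM68 libraries. Inclusion reads were 16, 14 and 9 in control and 0 in each SAM68 library, while skipping reads were 5, 8 and 6 in control and 13, 11 and 9 in SAM68. The groups were fully apart, a difference of -62.5 points with adjusted p = 0.0156 in the moderated quasi-binomial test. The call rests on 9 to 22 reads per library. Summed over libraries, 39 of 58 reads were of the inclusion form in control (67.2%, Wilson 95% interval 54.4 to 77.9%) and 0 of 33 in SAM68, which allows a share of up to 9.09% (3 reads). The intervals cover counting error only. The call was lost with one shared spread for all events (adjusted p = 0.0771). It was also lost with limma fitted to logit PSI (adjusted p = 0.111), a test that recovered 0 of 200 simulated shifts of 30 points and so says little here, and the adjusted p ran from 0.0156 to 0.676 over the alternatives.

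AP2M1 encodes the mu subunit of the AP-2 adaptor, which selects cargo at clathrin-coated pits. Its 6-nt exon, CATCAG in the set above, reached a PSI of 5.95%, 6.18% and 14.9% in control, and 0% in all 3 SAM68 libraries. Inclusion reads were 28, 32 and 78 in control and 0 in each SAM68 library, while skipping reads ran from 426 to 468 in control and from 391 to 489 in SAM68. The exon was thus seen in every control library and in no SAM68 library. The difference was -9.01 ± 5.10 points (SD of the control libraries, n = 3), just under the limit of 10 points, with adjusted p = 0.000157. Summed over libraries, 138 of 1461 reads in control were of the inclusion form (9.45%, Wilson 95% interval 8.05 to 11.1%) and 0 of 1330 in SAM68, which allows a share of up to 0.226%. Without the control library at 14.9%, the difference was -6.07 points. The adjusted p missed 0.05 with each event's own spread (0.585), with no minimum of reads (0.524) and with any single library left out (0.639 to 0.676). Over all alternatives it ran from 1.74e-11 to 0.676. The lowest values came from one shared spread for all events, which does not take the variation within the control group of this exon into account. In the fits with values over 0.5 the spread was moderated with a prior of at most 3.38 degrees of freedom. AP2M1 and TRAPPC9 had the same adjusted p there, so those fits say little about either exon. The adjusted p of 0.000157 rests on the prior of 20.2 degrees of freedom in the main fit, which did not hold with a library left out. A longer annotated exon shares one end of this exon. At the deepest other SE event of AP2M1, an exon of 266 nt, the libraries held 2019 to 2779 reads and mean PSI was 99.0% in control and 99.5% in SAM68.

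Several microexons had inclusion reads that were all present in one library and all absent in the next. In 37 of the 410 events (9.02%, against 4.53% of all tested SE events), one of the 2 forms had 0 reads in a library and at least 10 in another of the same group. The form at 0 was inclusion in 22 of these events and skipping in 17, counting 2 events under both. Of the 42 events that differed by at least 10 points, 13 (31.0%) had this pattern. The exons named for it here were chosen after their values were seen. The 6-nt exon 9 of PHB2, a mitochondrial prohibitin, had 157, 165 and 0 inclusion reads in control and 218, 0 and 263 in SAM68 libraries. Its PSI was therefore 98.1%, 100% and 0% in control and 96.3%, 0% and 99.2% in SAM68. Skipping reads in the 2 libraries without inclusion were 31 and 13, so all reads of the event fell there, while the deepest other SE event of PHB2 held 3446 to 4297 reads in every library.

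The 19-nt exon 4 of JPT1 showed the same on a larger scale. Inclusion reads were 0, 620 and 120 in control and 0 in every SAM68 library, with 1 to 13 skipping reads per library. Mean PSI was 66.0% ± 57.2 in control and 0% in SAM68 (SD, n = 3), a difference of -66.0 points with an adjusted p of 0.391, and the groups overlapped. With one shared spread for all events, which does not take the variation within the control group of this exon into account, JPT1 had an adjusted p of 2.06e-09 and was the 1 microexon event called, against 0.04% of all tested SE events. The deepest other event of JPT1 held 2336 to 2894 reads per library. The 10-nt exon 5 of RNF4, a ubiquitin ligase of SUMO-marked proteins, had inclusion reads of 74, 69 and 0 in control and 108, 12 and 41 in SAM68 libraries. The 19-nt exon 3 of GTF2F2, a subunit of the general transcription factor TFIIF, had 62, 0 and 120 in control and 61, 0 and 105 in SAM68 libraries. In these 4 exons the libraries with 0 inclusion reads stood in both groups for PHB2, JPT1 and GTF2F2 and only in control for RNF4. The alignment command in the study's methods names no file of known splice sites. Its part in these zeros, in those of AP2M1 and TRAPPC9, and in the low PSI of the rarely included microexons was not tested.

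Among the well-read microexons whose groups did not overlap, the 10 largest differences ran from 2.98 to 15.5 points in size, and only that of AP2M1 had an adjusted p under 0.05. AFDN, the junction scaffold afadin, had the largest with all libraries. Its 21-nt exon had a PSI of 60.3%, 56.7% and 33.7% in control and 62.8%, 63.1% and 71.1% in SAM68 libraries. All SAM68 libraries were higher, but one control library stood far below the other 2, and the difference of 15.5 points had an adjusted p of 0.437. Without that library the difference was 7.203 points, under those of PTS (7.88) and GRIPAP1 (7.30) without it. PTS, an enzyme of tetrahydrobiopterin synthesis, had a 23-nt exon 3 at chr11:112230208-112230230 with a PSI of 78.6%, 85.4% and 82.1% in control and 86.7%, 90.9% and 92.1% in SAM68 libraries. This exon, whose length is no multiple of 3, was higher by 7.86 points with adjusted p = 0.324. GRIPAP1, a protein of recycling endosomes, had a 27-nt exon 4 at 87.3% ± 1.71 in control and 95% ± 4.34 in SAM68 libraries (SD, n = 3), with adjusted p = 0.483.

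The other differences of that set were smaller. UGGT1, the folding sensor of glycoproteins in the endoplasmic reticulum, had a 24-nt exon at 91.4% ± 2.99 in control and 86.4% ± 1.45 in SAM68 libraries. SGCE, epsilon-sarcoglycan, had a 27-nt exon at 97.8% ± 2.05 and 93.4% ± 0.558 (all SD, n = 3). These 2 had lower values in SAM68, with adjusted p of 0.565 and 0.324. The nucleoporin gene NUP214 had a 25-nt exon at 96.7% ± 2.14 in control and 100% in all 3 SAM68 libraries, and ACOT9, a mitochondrial acyl-CoA thioesterase, a 27-nt exon at 86.3% ± 1.87 and 89.3% ± 0.185, with adjusted p of 0.39 and 0.565. The ACOT9 exon stood in 2 events, of which the deeper is given. With its rows summed the difference was 0.315 points (quasi-binomial test, adjusted p = 0.916).

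KIF21A, a kinesin that acts on microtubule growth, is named here after its values were seen, since its mean of 89.8 reads lay under 100. Its 21-nt exon had 0, 5 and 0 inclusion reads beside 89, 93 and 99 skipping reads in control, and 20, 13 and 5 beside 69, 70 and 76 in SAM68 libraries. The PSI was 0%, 4.45% and 0% in control and 20.1%, 13.9% and 5.39% in SAM68. Every SAM68 library was above every control library, though the closest pair differed by little, and the difference of 11.6 points had an adjusted p of 0.206. SUCO, also named after its values were seen, had a 21-nt exon at 68.4%, 67.5% and 40.9% in control and 100% in each SAM68 library, with 2 to 34 reads per library and an adjusted p of 0.206.

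Genes known for neuronal or muscle microexons left most of them out in these cells. Of 64 such genes, 19 had a microexon in the set, 21 exons in all, and 14 of the 21 had a PSI of at most 10%, 5 were in the middle class and 2 reached at least 90%. Lengths were multiples of 3 in 18 of the 21 (85.7%). None of the 21 was called, against 0.0126% of all tested SE events, and 1, AP2M1, had an adjusted p under 0.05, against 0.019%. Its adjusted p was 0.0496 by limma on logit PSI, a test that recovered 0 of 200 simulated shifts, and the fits in which it missed 0.05 are given above. Of the 21, 9 were lower and 12 higher, with a median difference of 0.296 points. Unadjusted p was under 0.05 for 5 of the 21 (23.8%, against 8.56% of all tested SE events), AP2M1, PTPRS, PTPRF, DNM2 and MACF1. PTPRS and DNM2 rested mainly on 1 control library each, without which their differences of -11.3 and -1.43 points were -2.57 and 0 points.

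Inclusion reads for microexons of transcription factors and kinases on the list were close to absent, and those of phosphatases low in most libraries. The MEF2 factors of muscle and neuron differentiation had 0 or 1 inclusion reads in every library for MEF2A (24 nt) and MEF2C (24 nt), and 0 to 2 beside 107 to 132 skipping reads for MEF2D (21 nt). The focal adhesion kinase gene PTK2 had 0 to 3 inclusion reads for its 18-nt exon 16 and 0 to 5 for its 21-nt exon 18, beside 262 to 360 skipping reads. The receptor phosphatase gene PTPRF had a 27-nt exon 14 at chr1:43602071-43602097 with 3, 5 and 3 inclusion reads in control and 16, 4 and 12 in SAM68 libraries. Its PSI was 0.952%, 1.28% and 0.963% in control and 3.91%, 1.72% and 3.04% in SAM68, groups that did not overlap, with a difference of 1.82 points and adjusted p = 0.485. The related PTPRS had 11 inclusion reads in one control library, 1 in another and 0 in the other 4 at its 12-nt exon, a PSI of 28.9%, 5.14% and 0% in turn. VAV2, a guanine nucleotide exchange factor, was the other extreme, with its 17-nt exon 20 at 98% to 100% in every library.

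Of the 5 exons of the middle class on the list, 4 were in genes of vesicle and cytoskeletal proteins. MACF1, which crosslinks microtubules and actin, had its 18-nt exon 95 at 7.33%, 10.7% and 8.43% in control and 13.9%, 12.6% and 10.98% in SAM68 libraries. The groups were separate by a narrow margin, and the difference of 3.64 points had an adjusted p of 0.565. SPTAN1, alpha-II spectrin, had its 18-nt exon 51 at 85.6%, 85.2% and 86.5% in control and 91.1%, 81.7% and 91.7% in SAM68 libraries, where the groups overlapped. PICALM, a clathrin assembly protein, had a 24-nt exon at 24.7% ± 5.55 and 27.1% ± 5.74, and CLASP1, which stabilises microtubule plus ends, a 24-nt exon at 15.2% ± 6.00 and 18.4% ± 4.66 (all SD, n = 3). RPS24, a ribosomal protein, had the fifth and most deeply read, a 22-nt exon of the 3' UTR at 12.5% ± 0.575 and 12.8% ± 0.874 (SD, n = 3). ANK2, an ankyrin that ties membrane proteins to spectrin, had the second of the 2 list exons at PSI of at least 90%, a 22-nt exon at 77.5% in one control library and 100% in the other 5, on 10 to 27 reads per library. The other vesicle and cytoskeletal exons of the list had a PSI of at most 10%. DNM2, the endocytic GTPase dynamin 2, had 12 inclusion reads in one control library and 0 in the other 5, ACAP2, a GTPase-activating protein of endosomes, had 1 read in all, and the myosin gene MYO6 reached 0% to 7.78% at its 27-nt exon.

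Exons of 3 to 6 nt were few, 7 in all. The shortest, the 3-nt GAG of RTRAF at chr14:52004240-52004242, had 9, 21 and 23 inclusion reads in control and 19, 24 and 14 in SAM68 libraries. Skipping reads were 6 in one control library and 0 in the other 5, and the adjusted p was 0.565. The 6-nt exon of DCTN2, GAGCTG, at chr12:57538519-57538524 had 0 inclusion reads in every control library and 6, 3 and 3 under SAM68, among 818 to 1167 skipping reads. Over the 3 libraries that is 0 of 2679 reads in control, which allows up to 0.112%, and 12 of 3125 in SAM68 (0.384%, Wilson 95% interval 0.22 to 0.67%). The limit and the interval cover counting error only. The groups did not overlap, and the adjusted p was 0.364. The 6-nt GAGCAG of NSFL1C, a cofactor of the p97 ATPase, had 3 inclusion reads in one SAM68 library and 0 in the other 5, beside 373 to 510 skipping reads. APOO, a mitochondrial cristae protein, had a 6-nt exon at 27.9% ± 5.16 in control and 22.4% ± 5.14 in SAM68 libraries, and SEPT7, a septin, a 5-nt exon at 78.3% ± 8.91 and 81.6% ± 25.7 (all SD, n = 3), both on under 60 reads per library.

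Splicing factors known to act on microexons were looked at through their own cassette exons. Of 19 such genes, 12 had a tested SE event, 76 events in all, and none of the 76 had an adjusted p under 0.05 in the quasi-binomial test (against 0.019% of all tested SE events), and 14 (18.4%, against 8.56%) had an unadjusted p under 0.05, 5 of them in PTBP1 and 3 in KHDRBS1, the gene raised by the plasmid, with a median difference over the 76 of -0.0218 points. The smallest adjusted p among the 14 was 0.102, at a 31-nt exon of PTBP1 with a mean PSI of 97.4% in control and 99.7% in SAM68 libraries. SRRM4, SRRM3, RBFOX1, RBFOX3, ESRP1, ESRP2 and KHDRBS2 had no tested SE event. None of the 19 genes held a microexon of the set.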

How the data were processed

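RNA of NCI-H1975 cells was sequenced in 3 control and 3 SAM68 libraries, which the study's methods call biological replicates. The authors trimmed reads with fastp 0.20.0, aligned them to GRCh38 with HISAT2 2.1.0, without a splice-site file in the command they print, and made rMATS tables. The deposited values used here are other than single numbers, namely lists of 3 junction counts per group and event, with no replicate numbers. From the panel names in the study, the first list was taken as control. Members and lists were chosen with earlier results of these data known. PSI was recomputed with inclusion lengths of 132 to 156 nt and a skipping length of 130 nt, and differed from the deposited levels by at most 0.0005 as a fraction. Columns of the authors' own comparison (p-values, FDR, differences) and 4 other event tables were not used.

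A quasi-binomial F test of group was fitted to each of 47450 SE events in R 4.3.3, with the Pearson dispersion moderated by limma 3.58.1 (squeezeVar, prior 20.2 degrees of freedom) and not below 1, and Benjamini-Hochberg adjustment over all events. On simulated data for SAM68 against control (43104 events), 117 of 200 events shifted by 30 points were recovered, all 54 of those with at least 100 reads, and 3 unchanged events were called, while limma on logit PSI recovered 0 of the 200. The simulated spread was under the mean of 3.08 in real events with at least 10 reads of each form. Shifts went upward only, and zeros in single libraries as in PHB2 were not simulated. The recovery and the 3 calls may therefore not hold for the real data. Between libraries of a group the chi-square per degree of freedom over genes was 3.14 to 4.49, so no library was a copy of another. Depth limits each value, and events near 10 reads are imprecise. Named exons were those called, the 10 largest differences with at least 100 reads and groups apart, up to 15 of known microexon genes in the middle class, the 5 deepest at PSI of at least 90% and of at most 10%, and the 8 deepest of 3 to 6 nt, 1 row per exon. One exon that this rule named is not reported here. Exon locations are from GENCODE 44, and pysam 0.24.0 read the sequences from hg38. The alternatives were other spreads and tests, read minimums, summed rows, other limits, no length normalization and leaving out each library.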

Additional observations from a re-analysis of the deposited data

How the results depend on the processing

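The count of called events was 1, and it was 0 with an unmoderated spread per event, with limma on logit PSI, with a mean of at least 20 reads (TRAPPC9 then falls out) and with no minimum of reads, where 16, 20, 41 and 32 microexon events had an unadjusted p under 0.05. It was 2 with a limit of 5 points or with no limit on the difference, and 1 with rows of an exon summed. Leaving out one library at a time gave 0 calls each time, with 14 to 22 events at an unadjusted p under 0.05. The prior of the moderation was 20.2 degrees of freedom in the main fit and under 1 with any single library left out. It was 0 for the unmoderated spread and 3.38 with no minimum of reads, while limma on logit PSI recovered 0 of 200 simulated shifts. The 2 adjusted p under 0.05 of the main fit thus rest on a prior that did not hold without all libraries. These fits do not show that the 2 results are stable. With one shared spread for all events, an alternative chosen after seeing the data, the count was 1, and that event was JPT1, not TRAPPC9. Together with leaving out one library it gave 1 to 2 calls, and AP2M1 had an adjusted p of at most 1.92e-05, while that of TRAPPC9 was between 0.0978 and 0.641. The shared spread was 3.08 and the own spread of AP2M1 8.01, so these p-values leave out much of the variation between its control libraries. In the moderated quasi-binomial test, leaving out one library gave AP2M1 an adjusted p of 0.639 to 0.676. The difference in AP2M1 then ran from -10.5 to -6.07 points. The cause of the lost TRAPPC9 call was not tested. At a mean of at least 50 reads the middle class held 23.6% of events in place of 28%. The median difference stayed between -0.0201 and 0.0045 points. Of 889 values of 47 named events under alternatives, 816 kept their side of the threshold and did not turn in sign (10 of them were exactly 0), 24 lost significance, 7, all JPT1, gained it, and 42, of 12 events, turned in sign. All 42 came from leaving out one library, and 0 were of an event with an adjusted p under 0.05. Over the libraries left out, the difference in points ran from -0.221 to 0.637 in RPS24 (turned values also -0.0722), from -0.791 to 4.79 in PICALM (also -0.712), from -0.0434 to 5.89 in CLASP1 (24 nt), from -0.137 to 0.0738 in RPL41 (also 0.0714), from -0.0909 to 0.142 in HINT1, from -33.8 to 31.8 in PHB2 (also 15.2 and 16.2), from -5.89 to 18.02 in SEPT7 (also -2.22), from -2.02 to 0.0018 in HNRNPC, from -0.363 to 0.557 in GAS5 (also -0.242), from -0.489 to 1.75 in AXL (also -0.0538 and -0.117), from -0.668 to 4.41 in PLSCR1 and from -0.544 to 23.1 in UBE2B. A quasi-likelihood test of the form-by-group interaction was not run. No paired analysis was possible because the lists carry no replicate numbers.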
